A study of Mus musculus with 17 samples.

Results

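The nuclear genes of the mitochondrial respiratory chain were examined for H3.3 at their transcription start sites (TSSs) in pachytene spermatocytes with and without ARID1A. Members were the autosomal protein-coding genes of GENCODE M21 on mm10 whose symbols start with Nduf, Uqcr, Sdh followed by a to d, Cox4 to Cox8 or Atp5, together with Cyc1, Cycs and Cyct. The rule found 98 gene records of 20807 autosomal protein-coding genes. They carry 97 symbols, because Atp5o is annotated as a pair of records. A member was scored as occupied where any base of a row of a deposited H3.3 peak list lay within 1 kb of any of its annotated TSSs. The rule reads symbols and annotation, not peak values.

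The respiratory chain passes electrons from NADH and succinate to oxygen and builds the proton gradient that drives ATP synthase. Complex I oxidizes NADH, complex II (succinate dehydrogenase) oxidizes succinate, complex III passes the electrons to cytochrome c, complex IV (cytochrome c oxidase) reduces oxygen, and complex V is the ATP synthase. Most subunits are made in every cell, but a few are replaced by tissue-restricted isoforms, and male germ cells carry their own cytochrome c and complex IV subunits. H3.3 is a histone variant that can be placed on chromatin outside DNA replication and is typical of active promoters.

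H3.3 was mapped by CUT&RUN, in which an antibody against H3.3 tethers a nuclease that releases the bound chromatin for sequencing. The cells, labelled Arid1aWT and Arid1acKO and called Arid1a WT and Arid1a cKO here, were pachytene spermatocytes sedimented from pooled testes of adult males with a Sta-Put gradient. For H3.3 there were 2 Arid1a WT and 3 Arid1a cKO libraries among the 17 of the series, and the 12 libraries for ARID1A were not analysed here. By the methods, Arid1a cKO males were Arid1a fl/fl with the Stra8-Cre transgene, which is active in spermatogonia, and Arid1a WT males were Arid1a fl/fl or Arid1a fl/+ without Cre. Excision was incomplete, so the Arid1a cKO fractions also held cells that escaped it. Floxed mice were kept on a CD1 background. Each genotype is represented by 1 combined peak list. There is therefore 1 value per gene and genotype, no spread between replicates and no test of the genotype. The depth of the libraries is unknown.

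The Arid1a WT list held 228 rows, of which 4 merged regions were autosomal, and the Arid1a cKO list held 12183 rows in 6552 merged regions, of which 6179 were autosomal. The fold enrichment of a row is the authors' ratio of H3.3 to IgG background in that peak. The lowest fold was 4.85 in the Arid1a WT list and 2.80 in the Arid1a cKO list. A gene without a row has no known level: the lists hold only peaks that passed the caller and the overlap of replicates. Pachytene marker genes could not be checked, since no RNA was measured here.

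H3.3 rows lay at the TSSs of 55 of the 98 members in Arid1a cKO and at none in Arid1a WT. The Arid1a cKO share was 56.1% (95% Wilson interval 46.3 to 65.5%). Over all autosomal protein-coding genes it was 29.5% (6145 of 20807). These intervals cover counting error only and treat genes as independent. The median number of annotated TSSs was 4 at members and 3 over all genes, and its part in the shares was not tested. In the Arid1a WT list 0 of 20807 autosomal protein-coding genes had a row (0.0%). The absence of rows there is thus shared with every autosomal gene and is not particular to the respiratory chain. It is an absence of called peaks, not of H3.3. Of the 55 members, 36 had an Arid1a cKO fold below 4.85, the lowest fold in the Arid1a WT list. The other 19 (34.5%, against 28.2% of all occupied genes) lay at or above it. The paper reports H3.3 signal above IgG at TSSs of autosomal genes regulated by ARID1A, which appeared stronger in Arid1a cKO than in Arid1a WT.

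The level at occupied members was like that at other occupied genes. The median fold was 4.16 over the 55 members (quartiles 3.61 and 5.16, range 2.90 to 8.00) and 4.12 over the 6145 genes (quartiles 3.48 and 5.01, range 2.81 to 14.9). Respiratory chain genes held a row more often than genes at large, at a similar fold. Every occupied member had exactly 1 merged region, and no region served more than 1 member. The region comprised 2 rows at 54 members and 1 row at Ndufs5. Where there were 2 rows, both carried the same peak name and fold, so they are not separate peaks.

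**Figure D1:**
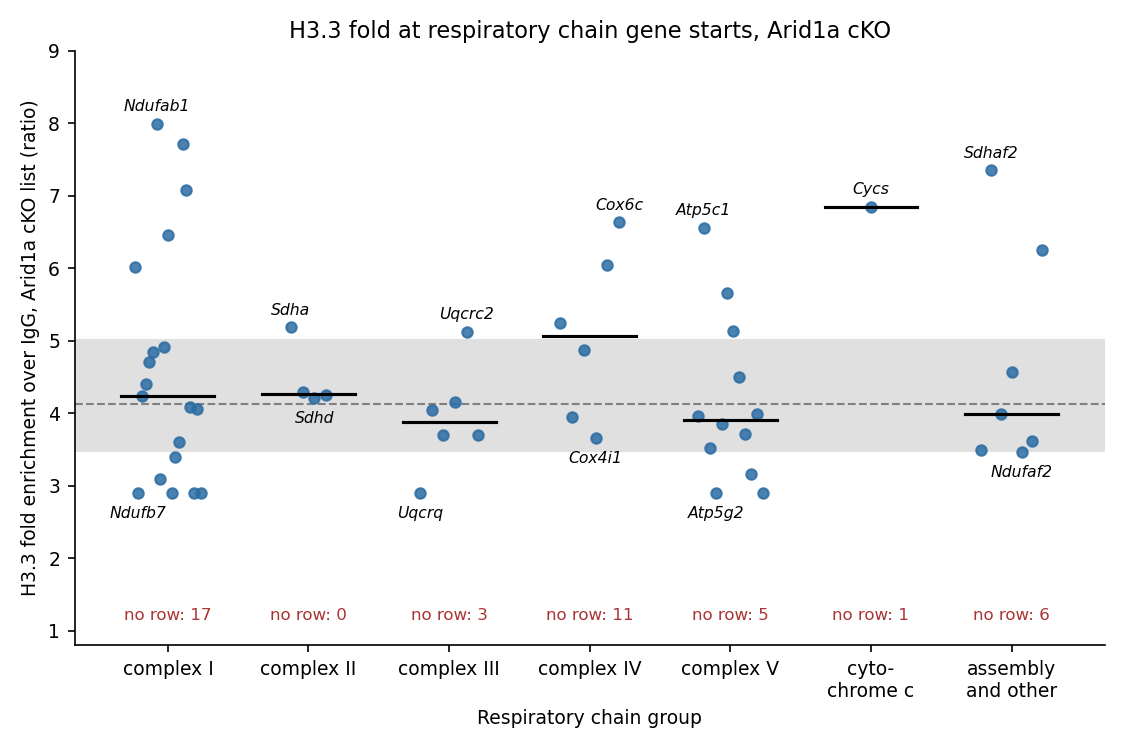
H3.3 fold enrichment over IgG in the Arid1a cKO list (ratio, linear axis) for each member with a row, grouped by complex. Points are genes, black bars are group medians, the dashed line and grey band are the median (4.12) and quartiles of all autosomal protein-coding genes with a row, and the red text counts members without a row. Ndufab1 is the highest point at 8.00, complex II lies between 4.21 and 5.19, and complex IV has the most members without a row after complex I.

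Complex I had 19 of 36 members occupied (52.8%, 37.0 to 68.0%), with a median fold of 4.23. Its core subunits include those that carry the flavin and iron-sulphur clusters. Of the 7 core subunits encoded in the nucleus, 6 were occupied (85.7%, 48.7 to 97.4%, against 29.5% of all genes). The core and accessory groups were drawn up after the values had been seen and were not tested. Ndufv2, a subunit of the NADH-oxidizing module, had a fold of 7.08. Ndufs1, of the same module, had 4.85, and the flavin-binding Ndufv1 had 3.40. The core subunits Ndufs8 and Ndufs3 had 4.40 and 4.09. Core folds spanned most of the range of the whole set. Ndufs7, an iron-sulphur subunit, had no row, and its nearest row was 7442 bp from a TSS.

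Among the accessory subunits of complex I, 13 of 28 were occupied (46.4%, 29.5 to 64.2%). Ndufab1, the mitochondrial acyl carrier protein, had the highest fold of all members, 8.00 (-log10 q 10.03), over chr7:122101549-122102018. Of all occupied genes, 98.4% had a fold at or below it. Ndufb2, a small subunit of the membrane arm, followed with 7.71 (-log10 q 11.19) over chr6:39592612-39592872. Ndufc1 had 6.02, Ndufs4 had 4.92 and Ndufa11 had 4.70. At the other end, Ndufb3, Ndufb6, Ndufb7 and Ndufs5 all had a fold of 2.91. Accessory subunits included both the strongest and the weakest occupied genes of complex I. A fold of 2.91 with a -log10 q of 2.11 was the most frequent value in the Arid1a cKO list, shared by 917 rows. Accessory subunits without a row were Ndufa2, Ndufa3, Ndufa4, Ndufa5, Ndufa6, Ndufa7, Ndufa8, Ndufa9, Ndufa12, Ndufb8, Ndufb9, Ndufb10, Ndufc2, Ndufs6 and Ndufv3. Ndufa4 is grouped here by its symbol, although its product works in complex IV.

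In complex II every gene was occupied, 4 of 4 (51.0 to 100%). Sdha, the flavoprotein that oxidizes succinate, had a fold of 5.19. Sdhb, the iron-sulphur subunit, had 4.30, and the membrane anchors Sdhc and Sdhd had 4.25 and 4.21. The values lay close together. Their -log10 q ranged from 3.66 to 4.84, so none of the 4 remained where a -log10 q of at least 5 was required. The share of all genes at that threshold was 9.56%, from which 0 of 4 cannot be set apart.

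Complex III had 6 of 9 members occupied (66.7%, 35.4 to 87.9%). Uqcrc2, a core protein of the matrix arm, had a fold of 5.13, and its partner Uqcrc1 had 3.70. The subunits that carry electrons were both occupied: Cyc1, cytochrome c1, had 4.16, and Uqcrfs1, the Rieske iron-sulphur protein, had 3.70. The hinge protein Uqcrh had 4.05 and the small subunit Uqcrq 2.91. The small subunits Uqcrb, Uqcr10 and Uqcr11 had no row.

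Complex IV had 6 of 17 members occupied (35.3%, 17.3 to 58.7%). This share lies near the 29.5% of all genes, and its interval overlaps that of each of the other complexes. The median fold of the occupied genes was 5.06. They were Cox6c (6.63), Cox8a (6.05), Cox5b (5.25), Cox5a (4.87), Cox7c (3.95) and Cox4i1 (3.66), of which the last 2 lay below the 4.12 of all occupied genes. With its 7 tissue-restricted isoforms set aside, 6 of 10 genes of complex IV were occupied (60.0%, 31.3 to 83.2%). These isoforms were grouped after the values had been seen. None of them had a row, so setting them aside could only raise the share. The remaining genes without a row were Cox6a1, Cox6b1, Cox7a2 and Cox7a2l, the last of which encodes a factor of supercomplex assembly. Its nearest row was 579350 bp away.

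Complex V had 12 of 17 records occupied (70.6%, 46.9 to 86.7%). All 5 subunits of the F1 part, which makes ATP, had a row (56.6 to 100%, against 29.5% of all genes). Atp5a1, Atp5c1 and Atp5d have another coding TSS within 1 kb, at 70, 83 and 16 bp. Of all genes with such a TSS, 55.9% were occupied. Atp5b and Atp5e have none. Atp5c1, the rotating gamma subunit, had the highest fold at 6.56. The catalytic beta subunit Atp5b had 5.66 and the alpha subunit Atp5a1 had 3.99. Atp5e (epsilon) had 5.13 and Atp5d (delta) 3.71. Outside F1, 7 of 12 records were occupied (58.3%, 32.0 to 80.7%), at folds from 2.90 to 4.50. F1 was singled out after the values had been seen, and the difference between both parts was not tested.

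The c ring of ATP synthase is built from a protein that 3 genes encode. Atp5g3 had a fold of 3.97 and Atp5g2 had 2.90, the lowest of all members, whereas Atp5g1 had no row. The row at Atp5g2 did not pass a -log10 q of at least 3 and was lost with curated RefSeq transcripts. The other records of complex V without a row were Atp5h, Atp5j2, Atp5k and the second record of Atp5o. The first record of Atp5o, the stalk subunit that joins F1 to the membrane part, had a fold of 2.91.

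Assembly factors and related genes that the symbols take in were occupied at 7 of 13 (53.8%, 29.1 to 76.8%). Sdhaf2, which helps attach flavin to Sdha, had a fold of 7.35, and Ndufaf4, an assembly factor of complex I, had 6.25. Atp5s, a factor related to ATP synthase, had 4.56. Ndufaf2, Ndufaf3, Ndufaf6 and Ndufaf8 lay between 3.46 and 3.99. Ndufaf1, Ndufaf5, Ndufaf7, Sdhaf1, Sdhaf3 and Sdhaf4 had no row. Leaving these 13 genes out changed little, with 48 of 85 subunit genes occupied (56.5%).

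**Figure D2:**
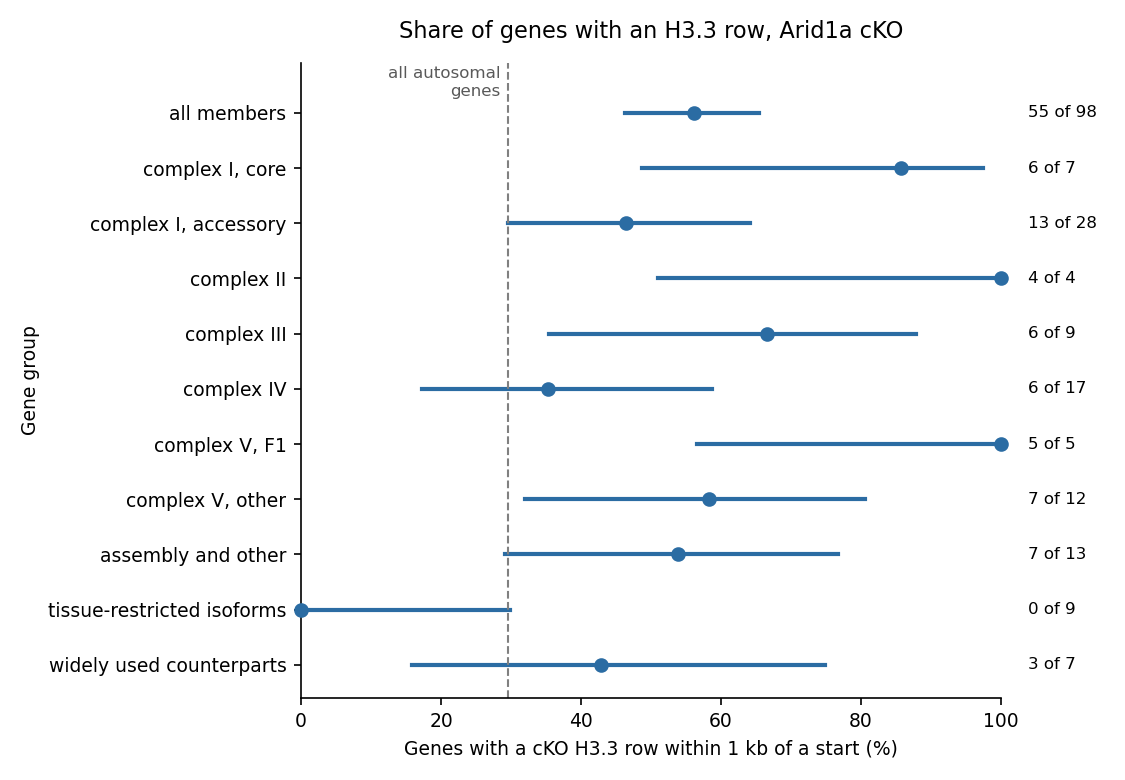
Share of genes with an Arid1a cKO H3.3 row within 1 kb of a TSS (percent, linear axis) for all members and 10 groups. Points are shares, lines are 95% Wilson intervals, the counts stand at the right, and the dashed line is the 29.5% of all autosomal protein-coding genes. Complex II and F1 lie at 100%, and the tissue-restricted isoforms lie at 0.

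None of the 4 testis isoforms had a row. These were Cyct, the cytochrome c of spermatocytes and sperm, and the complex IV subunits Cox6b2, Cox7b2 and Cox8c. Their nearest rows were 9483 bp (Cyct), 12209 bp (Cox6b2), 8527 bp (Cox7b2) and 20847 bp (Cox8c) from a TSS. The somatic cytochrome c gene Cycs had a fold of 6.85 (-log10 q 9.27) over chr6:50566337-50566966. Cox8a, the widely used form beside Cox8c, had 6.05 over chr19:7217291-7217702. Cox6b1, the widely used form beside Cox6b2, had no row, so 1 of the 3 comparisons of a testis gene with its somatic form showed no difference in occupancy. The somatic counterpart of Cox7b2, Cox7b, is X-linked and outside the rule, and it too had no row.

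Isoforms restricted to other tissues had no row either. Cox4i2 and Ndufa4l2, which are known to respond to low oxygen, and the heart and muscle isoforms Cox6a2, Cox7a1 and Cox8b were all without one. Together, 0 of 9 tissue-restricted isoforms were occupied (0 to 29.9%), against 48 of the 76 other subunit records (63.2%, 51.9 to 73.1%). The upper bound of the isoforms lies just above the 29.5% of all genes, so with 9 genes they cannot be set apart from that background. Their widely used counterparts were occupied at 3 of 7, namely Cycs, Cox8a and Cox4i1, with none at Cox6b1, Cox6a1, Cox7a2 and Ndufa4. The isoforms were grouped after the values had been seen. They had a median of 1 annotated TSS, against 4 for the other subunit records. A row near any annotated TSS counted, so genes with fewer TSSs had fewer places for one. The part of TSS number in this contrast was not tested.

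The promoters of these genes are shown to let their CpG content be compared. The stretches below are RefSeq promoter sequence on GRCm38.p6, 5′ to 3′, limited to bases upstream of the TSS that lie in no annotated exon and to the 150 nearest ones. CpG dinucleotides are in capitals. The first 3 genes are occupied members, Cycs and Cox8a with testis forms and Ndufab1 with the highest fold.
Cycs, chr6:50566570-50566642, minus strand: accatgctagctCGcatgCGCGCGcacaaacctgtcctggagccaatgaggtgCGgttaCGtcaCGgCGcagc
Cox8a, chr19:7217617-7217766, minus strand: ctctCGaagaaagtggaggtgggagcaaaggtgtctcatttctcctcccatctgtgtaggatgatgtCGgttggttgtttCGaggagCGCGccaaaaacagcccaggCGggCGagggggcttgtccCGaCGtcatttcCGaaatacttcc
Ndufab1, chr7:122101887-122102036, minus strand: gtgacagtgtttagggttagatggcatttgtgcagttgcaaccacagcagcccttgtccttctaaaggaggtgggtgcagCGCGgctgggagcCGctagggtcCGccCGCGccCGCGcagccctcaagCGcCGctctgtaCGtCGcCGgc
The next 3 are testis isoforms without a row.
Cyct, chr2:76360454-76360603, minus strand: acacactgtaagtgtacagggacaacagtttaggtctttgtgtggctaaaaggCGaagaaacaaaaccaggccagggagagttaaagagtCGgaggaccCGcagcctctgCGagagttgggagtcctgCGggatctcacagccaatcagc
Cox6b2, chr7:4753095-4753225, minus strand: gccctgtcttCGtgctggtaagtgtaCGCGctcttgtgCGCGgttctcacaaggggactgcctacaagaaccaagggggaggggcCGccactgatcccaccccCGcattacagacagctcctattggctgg
Cox7b2, chr5:71548206-71548355, minus strand: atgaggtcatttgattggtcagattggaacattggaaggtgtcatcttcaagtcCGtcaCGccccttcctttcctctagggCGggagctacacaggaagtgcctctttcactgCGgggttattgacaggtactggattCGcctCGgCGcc
The last pair was picked for contrast. Ndufb2 has a row although its CpG ratio over the whole promoter window, defined below, is low (0.520). Cox6b1 has no row at a ratio of 0.807, between the medians of members without and with a row. Such members are not rare: 26 of the 35 matched members without a row were CpG-rich by the limits given below.
Ndufb2, chr6:39592415-39592564, plus strand: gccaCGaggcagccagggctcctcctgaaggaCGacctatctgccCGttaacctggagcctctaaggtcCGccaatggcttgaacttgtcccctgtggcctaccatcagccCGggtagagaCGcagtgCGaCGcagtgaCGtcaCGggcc
Cox6b1, chr7:30626152-30626301, minus strand: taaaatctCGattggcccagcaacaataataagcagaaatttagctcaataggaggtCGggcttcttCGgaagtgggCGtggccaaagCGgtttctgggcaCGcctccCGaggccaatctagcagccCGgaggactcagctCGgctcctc
The Cycs stretch held 8 CpG in 73 bases, the Ndufab1 stretch 13 in 150 and the Cox8a stretch 10 in 150, whereas those of Cyct and Cox7b2 held 5 and 7 in 150 and that of Cox6b2 held 7 in 131. The stretches of Ndufb2 and Cox6b1 held 10 and 9 in 150. Stretches differ in length and so are compared below over equal windows.

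CpG content was measured from 250 bases before to 50 bases after the TSS as the number of CpG over the number expected from C and G. The RefSeq table held 79 of the 97 member symbols, 44 with and 35 without a row. The median ratio was 0.868 at members with a row and 0.782 at members without, with overlapping quartiles (0.692 to 0.985 and 0.620 to 0.876). With the window set on the TSS nearest to the row, or on the most upstream TSS where there was no row, the medians were 0.903 and 0.725. Over all genes paired with RefSeq the median was 0.610 (15927 of 19906 matched), and over all such genes with a row it was 0.829. The tissue-restricted isoforms with an entry had low values, 0.466 for Cyct, 0.432 for Cox6b2, 0.564 for Cox7b2, 0.333 for Cox7a1 and 0.115 for Cox8b. With 5 of 9 matched, no summary over the isoforms is given. Cycs had 1.01, Ndufab1 0.953, Cox8a 0.842, Cox6b1 0.807 and Ndufb2 0.520.

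**Figure D3:**
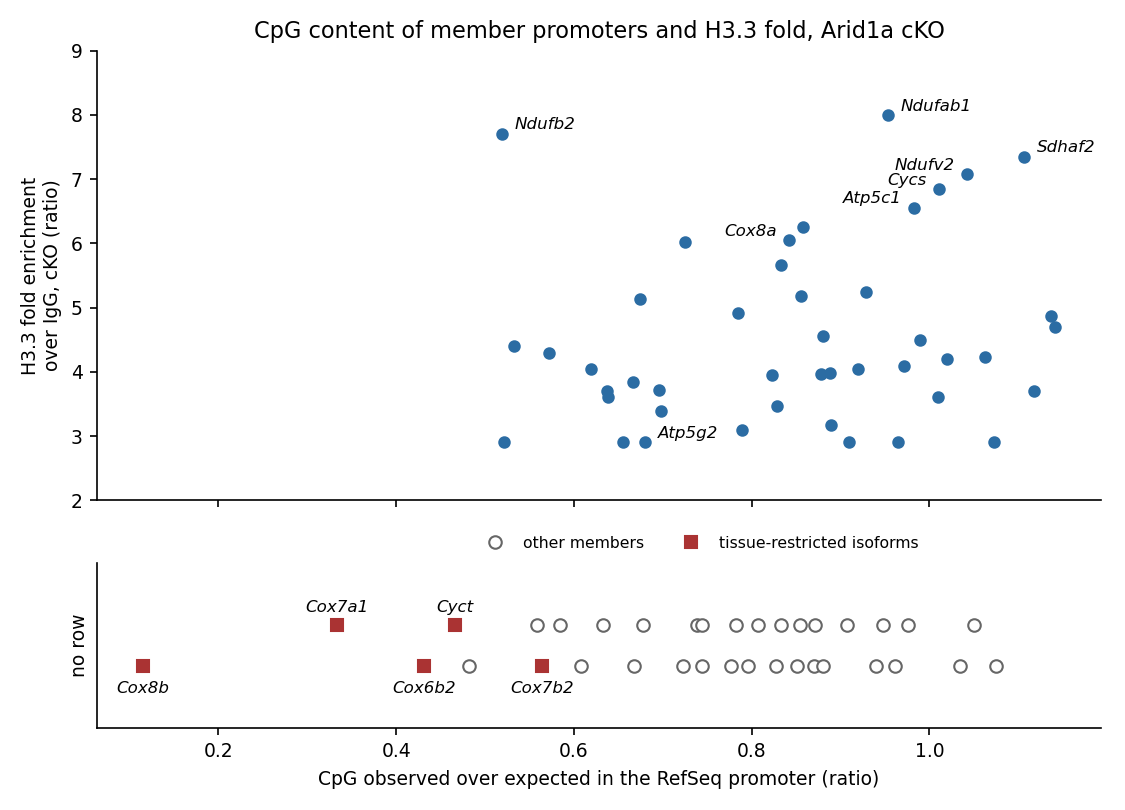
CpG observed over expected in the RefSeq promoter (ratio, linear axis) against Arid1a cKO H3.3 fold enrichment (ratio) for 44 members with a row, and along the lower strip for 35 members without a row, whose height has no meaning. Red squares are tissue-restricted isoforms, at 0.115 to 0.564, and open circles are other members without a row, which cover most of the range of the occupied members.

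Genes were then split by CpG class, with a promoter called CpG-rich at a ratio of at least 0.6 and a GC content of at least 50%. This split was chosen after the data had been seen. Of the matched members, 62 were CpG-rich and 17 were not, and 48.3% of all matched genes were CpG-rich. Among CpG-rich genes, members were occupied at 36 of 62 (58.1%, 45.7 to 69.5%) and all genes at 53.5%. Within this class the member share lies near the background. Among the other genes, members were occupied at 8 of 17 (47.1%, 26.2 to 69.0%) and all genes at 10.2%. The 8 were Atp5l, Cox7c, Ndufb2, Ndufb7, Ndufs4, Ndufs8, Sdhb and Uqcrh. Of these, Atp5l, Cox7c, Ndufs4 and Uqcrh had a ratio above 0.6 and were placed in the class by a GC content under 50%. CpG content moved with occupancy over all genes, and its part in the member share was not tested.

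Motifs of factors known for respiratory chain promoters were searched on both strands of the same windows. NRF1, a regulator of nuclear genes for mitochondria, was searched as GCGCNTGCG, which 32.9% of the 79 members and 9.50% of all matched promoters held. It was in 12 of 44 members with a row (27.3%), in 14 of 35 without (40.0%) and in 19.1% of all promoters with a row. The ETS motif CCGGAAG of GABP was in 25.3% of members and 12.4% of all promoters, and the YY1 motif AANATGGCG in 11.4% and 3.37%. Member promoters held these motifs more often than promoters at large, and the counts at members with and without a row were 12 of 44 and 8 of 35 for ETS and 5 of 44 and 4 of 35 for YY1. Of all promoters with a row, 22.6% held the ETS motif and 6.56% the YY1 motif. The cAMP response element TGACGTCA was in 5 of 44 members with a row (Cycs, Ndufa10, Ndufa11, Ndufb2 and Uqcrfs1) and in 0 of 35 without. It was in 2.46% of all promoters and 3.92% of those with a row. The GC box GGGCGG was in 49.4% of members and 48.4% of all promoters, but among those with a row in 50.0% of members and 71.8% of all promoters. The shares were, for the CCAAT box, 44.3% of members and 38.8% of all promoters and, for TATAAA, 10.1% and 13.2%. Motifs can overlap each other, and a match is not a bound site. In the stretches printed above, that of Cycs held an NRF1 match and that of Ndufb2 a cAMP response element. Those of Ndufab1 and Cox7b2 held a GC box. A CCAAT box was in those of Cycs, Cyct, Cox6b1, Cox6b2, Cox7b2 and Ndufb2, and that of Cox8a held none of the motifs.

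Most H3.3 regions covered a TSS of their member. Regions were taken only within 1 kb of a TSS and measured to the nearest one, so a centre near a TSS is partly fixed by the selection. The centre of a region lay a median of 44.5 bp downstream of the member's nearest TSS (quartiles -66.5 and 121), and 35 centres lay downstream and 20 upstream. The median width was 412 bp, from 171 bp at Ndufs1 to 1307 bp at Atp5d. Of the 55 regions, 42 covered a TSS of their member (76.4%, 63.7 to 85.6%), and over all genes the share was 76.0%. Position and cover were like those at other occupied genes.

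**Figure D4:**
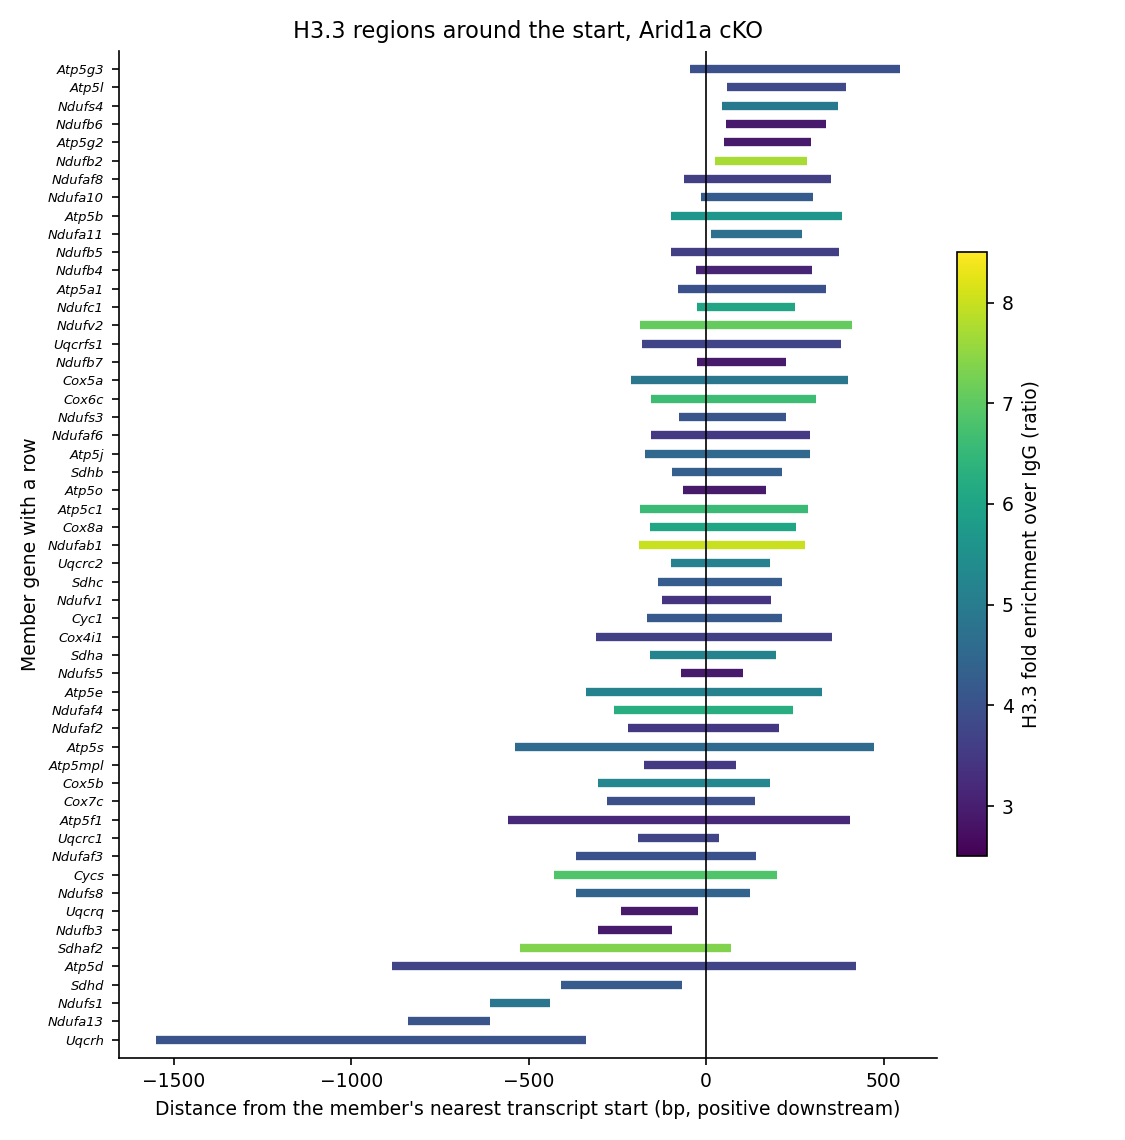
Extent of the Arid1a cKO H3.3 region at 54 of the 55 occupied members relative to its nearest TSS (bp, positive downstream), 1 bar per gene, coloured by fold enrichment over IgG (ratio) and ordered by the position of the centre. Most bars cross 0, and Uqcrh, Ndufa13 and Ndufs1 at the bottom lie wholly upstream, at 339 to 609 bp.

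The members farthest from a region yet within 1 kb were Ndufa13 (609 bp), Ndufs1 (440 bp) and Uqcrh (339 bp). The nearest member beyond 1 kb was Sdhaf1, with a row of fold 3.94 at 1497 bp, followed by Ndufb10 at 2276 bp and Ndufs6 at 2449 bp. Few genes lay near the limit.

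Respiratory chain genes often share a promoter with a neighbour, and a region there cannot be assigned to either gene. Another protein-coding TSS lay within 1 kb of 38 of 98 members (38.8%), against 14.9% of all genes. The 38 include the pair of Atp5o records, 298 bp apart on the same strand, each counted as the neighbour of the other. Of the 38, 35 had a neighbour on the opposite strand. Members with such a neighbour were occupied at 23 of 38 (60.5%, 44.7 to 74.4%), where all such genes were occupied at 55.9%. Members without one were occupied at 32 of 60 (53.3%, 40.9 to 65.4%), where all such genes were occupied at 24.9%. The member share exceeded the background among genes that stand alone and lay near it among genes with a close neighbour. The values were known when this split was made.

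At 46 of the 55 occupied members the region was nearest to a TSS of the member itself. At the other 9 the centre was nearer to the TSS of another coding gene. These were Sdhaf2 (Cpsf7), Ndufa11 (Vmac), Ndufa13 (Yjefn3), Ndufb3 (Fam126b), Ndufb5 (Mrpl47), Ndufs1 (Eef1b2), Sdhd (Timm8b), Uqcrh (Lrrc41) and Atp5f1 (Wdr77). Counted only for the nearest gene, 46 of 98 members were occupied (46.9%, 37.4 to 56.7%), against 25.8% of all genes. Atp5j is a divergent pair with Gabpa, which encodes a subunit of GABP, with their TSSs 31 bp apart. Their shared region had a fold of 4.50.

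A stricter threshold lowered the counts of members and of all genes together. At a -log10 q of at least 3, 43 of 98 members were occupied (43.9%, 34.5 to 53.7%), against 20.8% of all genes. At a -log10 q of at least 5, 19 members remained (19.4%, 12.8 to 28.3%), against 9.56% of all genes. The 19 comprised 8 of complex I, 4 of complex IV, 3 of complex V, Cycs and 3 assembly factors or related genes.

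Genes that act with the respiratory chain were examined from lists chosen with results of these data known. Of 12 genes of the tricarboxylic acid cycle, which supplies NADH and succinate, 10 were occupied (83.3%, against 29.5% of all genes), with a median fold of 4.13. The count was 6 (50.0%, against 20.8%) at a -log10 q of at least 3. Ogdh, of the oxoglutarate dehydrogenase complex, had 9.79, above every member. Dld, the shared lipoamide dehydrogenase, had 8.19 and Idh3a, an isocitrate dehydrogenase subunit, had 5.02. Sucla2, a subunit of succinyl-CoA ligase, had no row. Of 14 regulators of respiratory chain genes, 12 were occupied (85.7%, against 29.5% of all genes). They were led by Sp1 (6.06), Tfb1m (4.95) and Pprc1 (4.85), and Nrf1 itself had 3.75. Among them, Gabpa shares its region with the member Atp5j. Counted only for the nearest coding TSS, 10 regulators were occupied (71.4%, against 25.8% of all genes). The count fell to 2 (14.3%, against 9.56% of all genes) at a -log10 q of at least 5. The coactivator genes Ppargc1a and Ppargc1b had no row.

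Assembly factors outside the rule were occupied at 18 of 37 (48.6%, against 29.5% of all genes), led by Coa6 (6.75), Cox20 (6.18) and Timmdc1 (5.87). Of these, 8 passed a -log10 q of at least 5 (21.6%, against 9.56%). Of 7 other testis isoforms of energy metabolism, 2 were occupied (28.6%, near the share of all genes), Eno4 (4.69) and the ADP/ATP carrier Slc25a31 (3.37). Gapdhs, Ldhc, Pgk2, Pdha2 and Aldoart1, germ-cell forms of enzymes of glucose metabolism, had no row.

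Genes of the same families outside the rule were also scored. Of the X-linked subunit genes, Ndufa1 had a fold of 2.91, and Cox7b and Ndufb11 had no row. None of 12 processed pseudogenes with these symbols had a row. The share over all processed pseudogenes was not measured, so this count has no background beside it. Ndufb1-ps, annotated as a noncoding RNA at a bidirectional promoter, had a fold of 5.30. None of these genes had a row in the Arid1a WT list.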

How the data were processed

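CUT&RUN reads were trimmed with Trim Galore, aligned to mm10 with bowtie2 and cleared of PCR duplicates with Picard by the authors. The authors called broad H3.3 peaks with MACS2 against a rabbit IgG library that an earlier study had made from pachytene-enriched cells of juvenile testes, and overlapped the replicates with bedtools. The deposited lists give, per row, a fold (the ratio of H3.3 to background) and a -log10 q. Because the IgG came from other cells and each list combines replicates, folds were used to rank genes within a list. Across lists they were set only beside the lowest Arid1a WT fold. In the Arid1a cKO list, 0 of 6540 peak names carried more than 1 fold.

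Rows were matched to all GENCODE M21 TSSs within 1 kb, and a gene took its highest fold. Rows overlapping by at least 1 bp were merged into regions. Shares carry 95% Wilson intervals. Promoters came from RefSeq (GRCm38.p6), 1 per gene, and all 79 member entries equalled the genome at their coordinates. Functions were tested on simulated data. Python 3.11.15, numpy 2.4.6, pandas 2.3.3, scipy 1.17.1, Biopython, pyfaidx and matplotlib were used. Groups came from sample titles, and 0 per-sample columns were left unmatched.

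Individual values of 1 member and 1 gene of a list are not reported here. Members and lists were chosen with earlier results of these data known. Genes named were the isoforms and their counterparts, complexes II and III, the highest and lowest folds, members without a row and the top 3 of each list. Alternatives covered the distance and unit counted, the transcripts, -log10 q thresholds, row support, the nearest TSS and the TSS of the promoter window.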

Additional observations from a re-analysis of the deposited data

How the results depend on the processing

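No paired analysis was possible because replicates were combined into 1 list per genotype, and no replicate could be left out for the same reason. Of 153 alternative values over 19 results, 138 stayed within 1.5 times the count or within the interval of the median. Of the rest, 15 moved and 0 reversed. Taking the lowest or mean fold of the rows at a gene could not move the member median, since rows at a member shared 1 fold. Row support at members likewise counted rows of the same peak name. The Arid1a WT count stayed at 0 under every alternative, and so did the counts of the testis and of the tissue-restricted isoforms. Most alternatives can only keep or lower a count, so a count of 0 had little room to change. The tissue-restricted isoforms lay at least 8527 bp from a row, beyond the window of 2 kb. These counts are among the 138 values that stayed and add little to them.

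All but 1 of the moves came from the -log10 q thresholds. At a -log10 q of at least 5, members with an Arid1a cKO row fell to 19 and their median fold rose to 6.05. At that threshold 9.56% of all genes had a row. Complex I had 8 of 36 genes with a row, complex II 0 of 4, complex III 0 of 9 and complex V 3 of 17. Assembly factors and related genes had 3 of 13, assembly factors outside the rule 8 of 37 and regulators 2 of 14. The tricarboxylic acid cycle had 4 of 12 and other testis isoforms of energy metabolism 0 of 7. The 95% interval of each count of 0 includes 9.56%, so these small groups cannot be set apart from all genes. At a -log10 q of at least 3, complex I had 12, the tricarboxylic acid cycle 6 and other testis isoforms 1. The share of all genes was then 20.8%. Counted only for the nearest coding TSS, other testis isoforms had 1. The windows of 500 bp and 2 kb gave 54 and 56 members. Curated RefSeq transcripts, present for 97 of the records, gave 55 but exchanged Atp5g2 for Sdhaf1.

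Depth is unknown, and no level below the calling threshold is known for members without a row. The larger Arid1a cKO list comes from 3 libraries and the Arid1a WT list from 2, and their part in the difference was not tested.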
